A study of Homo sapiens with 8 samples.

Results

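Translation initiation and elongation factors were examined as 65 protein-coding genes, chosen by symbol from the 69215 genes listed in each RNA count table. A gene was taken when its GENCODE symbol began with EIF or EEF followed by a digit, and the methyltransferases of the elongation factors, whose symbols contain KMT, were left out. There were 56 core factors and 9 genes whose products bind or phosphorylate core factors, which are described apart.

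RNA was sequenced from G401, a human kidney rhabdoid tumor line with no SMARCB1, which encodes a core member of the mSWI/SNF remodelers of chromatin. The cells carried a Tet-On construct for either SMARCB1 or GFP, and both lines were given doxycycline (Dox, 0.1 µg/ml) or the solvent DMSO for 12 h. The 8 libraries made 4 groups of 2: SMARCB1 DMSO (no SMARCB1 induced), SMARCB1 Dox (SMARCB1 re-expressed), GFP DMSO (uninduced control line) and GFP Dox (GFP expressed). Per the study's methods, each library came from 6 pooled plates and experiments were done in duplicate, so p-values measure the spread between these libraries, and in pooled cells a lower level in every cell cannot be told apart from a loss in some of them.

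Translation initiates when EIF2, bound to GTP, brings the initiator tRNA to the small ribosomal subunit, with EIF1 and EIF1A guarding the choice of start codon and EIF3 as the scaffold. The mRNA is delivered by the EIF4F complex, in which EIF4E holds the cap, EIF4G bridges to EIF3 and EIF4A unwinds the 5′ end, and EIF2B recharges EIF2 with GTP. During elongation EEF1A delivers the aminoacyl-tRNAs, the EEF1B subunits (EEF1B2, EEF1D, EEF1G) recharge EEF1A, and EEF2 moves the ribosome along. The best known switches are the EIF4E binding proteins, which hold EIF4E until mTOR phosphorylates them, the 4 EIF2 kinases of the stress response, and EEF2K, which inhibits EEF2.

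The induced gene matched the labels. SMARCB1 had 30474 and 29383 counts after re-expression, 10 and 21 counts in the same line with DMSO, and 0 counts in all 4 libraries of the GFP line. Counts assigned to genes summed to between 29632090 and 37597477 per library. Mitochondrially encoded genes took between 18.9% (GFP Dox replicate 1) and 27.9% (SMARCB1 DMSO replicate 1) of them. The members took between 1.42% (SMARCB1 DMSO replicate 1) and 1.62% (GFP Dox replicate 1). Levels are given as CPM, counts per 1000000 assigned counts scaled with the TMM factors of edgeR, and levels of different genes are compared only as CPM per kb of the gene's canonical transcript.

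Of the 65 members, 61 passed the filter on low counts and were tested, and 56 of these averaged at least 10 CPM over the 8 libraries. The other 4 were counted at or near 0. EIF4E1B and EIF4E3, which are relatives of the cap-binding protein EIF4E, and EEF1E1-BLOC1S5, a read-through of neighboring genes, had 0 counts in every library. A count of 0 allows up to 3 counts, which is 0.0782 to 0.103 CPM depending on the library, for counting error only. This bound does not hold for EEF1E1-BLOC1S5, which shared 100% of its exon bases on the same strand with other annotated genes. Reads lying in shared exons were not assigned to a gene. EIF4EBP3, another EIF4E binding protein, had at most 5 counts in a library, with 4 and 2 counts in SMARCB1 DMSO and 0 counts in both SMARCB1 Dox libraries. Its GFP line libraries had 5 and 3 counts without Dox and 3 and 0 counts with it, so the lines overlapped. EIF4EBP3 shared 73.2% of its exon bases on the same strand with the read-through ANKHD1-EIF4EBP3. Its low counts are therefore bounded by the counting as well.

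The most abundant members were the elongation factor EEF1A1 and EIF5A, the hypusine-bearing factor that relieves stalled ribosomes. EEF1A1 averaged 1137 CPM per kb over the 8 libraries, with a range from 1025 to 1248. EIF5A averaged 627 CPM per kb, from 581 to 711, and did not overlap EEF1A1 or the next gene. EIF4G2, a relative of EIF4G1 that does not bind EIF4E, averaged 448 CPM per kb, from 431 to 468.

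EEF2 averaged 376 CPM per kb, from 324 to 421, and EIF3E, a subunit of EIF3, averaged 349 CPM per kb, from 303 to 386. Thus EEF2 and EIF3E overlapped over the libraries, whereas EIF4G2 lay above both. This order holds for canonical transcript length only. Over the union of all annotated exons EEF1A1 was still the highest, at 397 CPM per kb, but EEF2 and EIF5A were both at 295 CPM per kb, above EIF4G2 at 200.2 CPM per kb, and EIF3E was at 18.7 CPM per kb. Per library, EEF1A1 was at 4116 and 4384 CPM in SMARCB1 DMSO, 4175 and 4274 CPM in SMARCB1 Dox, 3598 and 3790 CPM in GFP DMSO, and 3736 and 3866 CPM in GFP Dox.

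EEF1A1 and EEF2 together held a large part of all member counts. In the SMARCB1 line their share was 33.3% and 34.4% without Dox and 35.1% and 34.9% with Dox. In the GFP line it was 30.4% and 31.9% without Dox and 30.7% and 32.4% with Dox. All 4 libraries of the SMARCB1 line were above all 4 of the GFP line, and the ranges with and without Dox overlapped within the GFP line but not within the SMARCB1 line. This share is a ratio within each library and does not depend on the scaling between libraries. No test was made on it.

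Within complexes whose subunits are used together, RNA levels spread widely. In EIF3, levels ran from 349 CPM per kb for EIF3E and 174 CPM per kb for EIF3I to 32.0 CPM per kb for EIF3M, and to 4.20 and 3.05 CPM per kb for EIF3C and EIF3CL. The 5 EIF2B subunits were lower and closer together, from 4.68 CPM per kb for EIF2B3 to 18.4 CPM per kb for EIF2B4. Of the EIF2 subunits, EIF2S3 (gamma) was at 119 CPM per kb, EIF2S2 (beta) at 40.8 CPM per kb and EIF2S1 (alpha) at 40.4 CPM per kb, so the ranges of beta and alpha overlapped.

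Some of these levels are bounded by the counting. Reads mapping to several places, or lying in exons shared by several genes, were not assigned to a gene, and for 8 of the 65 members less than 50% of the canonical transcript was found in no other annotated gene (in overlapping stretches of 50 bases). EIF4A1, the main helicase of EIF4F, had 0% of its own because the read-through gene SENP3-EIF4A1 covers it, and was counted at 14.0 CPM per kb against 72.4 CPM per kb for its paralog EIF4A2. EEF1G shared 99.7% of its exon bases on the same strand with another annotated gene (ENSG00000255508) and had at most 31 counts. EIF3C and EIF3CL, which are near-identical copies on chromosome 16, had 1.22% and 1.33% of their own.

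For EEF1A1, 62.8% of the transcript was its own and the rest recurred in 28 genes at other loci. EEF1B2 had 37.8% and EIF3L 43.4% of their own. Fold changes within a gene compare the same countable bases in every library, but a change in the overlapping gene or copy would not be seen apart from the member itself. On the opposite strand, 30 members shared exon bases with another gene, and the strand option of the counting was not stated.

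**Figure D1:**
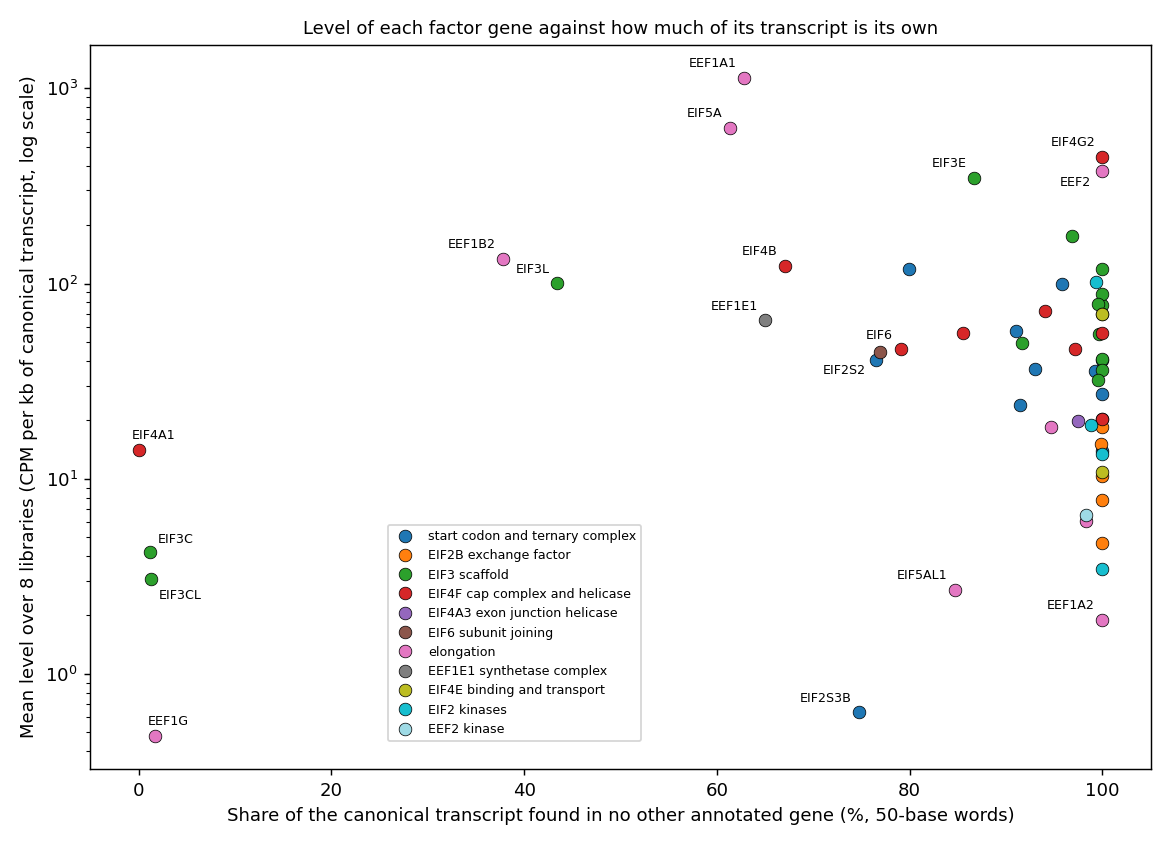
Each point is a tested member (EIF1AY not drawn), colored by role, with the share of its canonical transcript found in no other annotated gene on the x axis (percent) and its mean level over 8 libraries on the y axis (CPM per kb, log scale). EIF4A1, EIF3C, EIF3CL and EEF1G stand at the left edge with under 2% of their own sequence and levels of 14.0 CPM per kb or less.

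The start sites of the members were read from RefSeq (GRCh38.p14), which gave a window of 250 bases before to 50 bases after the start for 54 of the 65. An mRNA that begins with C and a run of C and T is known as a terminal oligopyrimidine (TOP) mRNA, a class whose translation follows mTOR. A C at the annotated start followed by at least 4 C or T, read on the gene's strand, was present in 12 of the 54 windows (22.2%), against 4.07% of all 35116 RefSeq windows. They belonged to EEF1A1, EEF1B2, EEF2, EIF2A, EIF2D, EIF2S3, EIF3D, EIF3F, EIF3K, EIF3M, EIF4A2 and EIF4B. All RefSeq windows were counted, whatever the type or expression of the gene. The members are protein-coding and mostly abundant, and their share was not compared with that of like genes. Below are the starts of the best known TOP mRNAs of translation factors (EEF1A1, EEF2, EIF4B), of the 3 with a run whose level was called different between the lines (EIF3F, EIF3K, EIF2D), and of EEF1E1, which has no such run. Each shows 15 bases on either side of the start, and capitals mark the run from the start onwards.
EEF1A1 (chr6:73521018-73521047, minus strand): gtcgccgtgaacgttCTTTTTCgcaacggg
EEF2 (chr19:3985449-3985478, minus strand): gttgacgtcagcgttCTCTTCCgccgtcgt
EIF4B (chr12:53006441-53006470, plus strand): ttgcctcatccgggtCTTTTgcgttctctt
EIF3F (chr11:7987322-7987351, plus strand): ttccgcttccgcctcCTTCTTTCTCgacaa
EIF3K (chr19:38619173-38619202, plus strand): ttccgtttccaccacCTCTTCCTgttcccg
EIF2D (chr1:206612451-206612480, minus strand): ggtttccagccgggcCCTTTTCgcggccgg
EEF1E1 (chr6:8102534-8102563, minus strand): tgttctgcaggtctcgcgtctgccaggagc

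The 12 genes with a pyrimidine start had a median level of 103 CPM per kb, and the 42 others with a window 18.6 CPM per kb, including those at 0. A match says only that these letters stand at the annotated start. The start used in G401 cells was not measured here.

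A second set of letters was CACGTG, the E-box bound by MYC and its relatives, which reads the same on both strands. It was found in 12 of the 54 windows (22.2%), against 7.26% of all RefSeq windows, again with no filter on gene type or expression. The genes were EEF2K, EIF1B, EIF2AK2, EIF2B3, EIF3F, EIF3K, EIF4A3, EIF4B, EIF4E, EIF4EBP3, EIF4H and EIF5A2. EIF3F, EIF3K and EIF4B had both features. The 5 windows shown belong to members called between the lines, with the E-box in capitals.
EIF5A2 (chr3:170908807-170908836, minus strand): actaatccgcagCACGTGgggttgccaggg
EIF3F (chr11:7987257-7987286, plus strand): aaagctctagctCACGTGgtgtatattcag
EIF3K (chr19:38619073-38619102, plus strand): cgaggaagaagtCACGTGgcagccggaaag
EIF4A3 (chr17:80147232-80147261, minus strand): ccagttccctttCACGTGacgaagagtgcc
EEF2K (chr16:22206207-22206236, plus strand): cctgggggcggcCACGTGagcgccacgccg

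To assess whether SMARCB1 re-expression altered the RNA of the translation machinery itself, SMARCB1 Dox was compared with SMARCB1 DMSO. Of the 61 members tested, 1 was called at an adjusted p under 0.05 (edgeR, Benjamini-Hochberg over 15931 genes), against 14% of all genes tested (8.33% higher and 5.69% lower, or 1327 of 2234 called genes higher, which became 1986 of 2483 with library totals in place of TMM). It was EEF1E1, which was lower. None of the 13 tested start codon and ternary complex factors, 5 EIF2B subunits, 14 EIF3 genes, 9 cap complex and helicase genes, 9 elongation factors, 4 EIF2 kinases or 3 EIF4E binding and transport genes passed. The median log2 fold change was -0.01 over the members and -0.004 over all genes tested.

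Members are mostly abundant genes, so the background was also read above a floor of 10 CPM. Levels above this floor were not matched. Among genes of at least 10 CPM, 1542 of 8523 (18.1%) were called, and 1 of 56 members (1.79%). The median absolute log2 fold change was 0.07 for these members and 0.13 for all genes above the floor. An unadjusted p under 0.05 was reached by 6 of the 61 members, against 26% of all genes. Both SMARCB1 Dox libraries lay above both SMARCB1 DMSO libraries for 9 of the 61 members and below them for 16, against 25.9% and 25.2% of all genes tested.

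EEF1E1 (chromosome 6, positions 8073360 to 8102559, GRCh38, minus strand) encodes a small scaffold protein of the multi-tRNA synthetase complex, named for its similarity to elongation factor 1 subunits. Its RNA was at 76.1 and 77.2 CPM in SMARCB1 DMSO and at 57.7 and 59.7 CPM in SMARCB1 Dox. In the control line it was at 68.4 and 62.5 CPM in GFP DMSO and at 75.2 and 65.0 CPM in GFP Dox. The SMARCB1 Dox libraries were thus the lowest of the 8, and the GFP groups overlapped.

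EEF1E1 fell by 0.39 on the log2 scale with SMARCB1 (SE 0.09, 95% interval -0.57 to -0.20, adjusted p = 0.00397), that is to 0.766 of its level without Dox. In the GFP line its log2 fold change was 0.10 (SE 0.09, adjusted p = 1). The read-through EEF1E1-BLOC1S5 shares 100% of its exon bases on the same strand with other annotated genes, EEF1E1 among them. Its reads in shared exons were not assigned to a gene, so its 0 counts do not show that it was absent. The fall was called in all 16 alternatives, with the smallest change, -0.29 on the log2 scale, under scaling to library totals (adjusted p = 0.0345, edgeR, against a range from 0.000262 to 0.0437 over all alternatives).

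After EEF1E1, the smallest adjusted p-values belonged to EIF4A3, EEF1D and EIF5B, none of which passed. EIF4A3, the helicase of the exon junction complex, was at 40.7 and 45.3 CPM in SMARCB1 DMSO and at 54.1 and 48.7 CPM in SMARCB1 Dox (log2 fold change 0.26, SE 0.09, adjusted p = 0.0593). EEF1D, an exchange subunit for EEF1A, was at 38.9 and 39.9 CPM and then at 49.1 and 44 CPM (0.24, SE 0.09, adjusted p = 0.0794). EIF5B, the GTPase that joins the ribosomal subunits, was at 145 and 153 CPM and then at 120 and 137 CPM (-0.22, SE 0.08, adjusted p = 0.096). In these 3 genes the SMARCB1 Dox and DMSO libraries did not overlap. Of all genes tested, 25.9% were higher without overlap and 25.2% lower. The 3 were picked for their small p-values on the same libraries, so this adds no support. EIF4A3 was called in 5 of the 16 alternatives and not in the other 11. Its log2 fold change was 0.34 without SMARCB1 DMSO replicate 2 and 0.33 without SMARCB1 Dox replicate 2.

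The depth allowed a bound on most members. For 58 of the 61 tested, EEF1E1 among them, the 95% interval of the Dox effect in the SMARCB1 line lay within a 1.5-fold change. This holds for either direction. The exceptions were EEF1A2, EEF1G and EIF2S3B, which had low counts. EIF4A1, EIF3C and EIF3CL, also among the 58, had 0%, 1.22% and 1.33% of their transcript of their own. For them the bound covers only the reads that could be counted. EEF1A2, the EEF1A form of muscle and neurons, had the largest positive log2 fold change, 0.36, at 3.02 and 2.27 CPM in SMARCB1 DMSO and 3.82 and 2.95 CPM in SMARCB1 Dox, so the groups overlapped (SE 0.22, adjusted p = 0.322). For EEF1A1 the log2 fold change was -0.01 (95% interval -0.19 to 0.17) and for EEF2 it was 0.14 (-0.06 to 0.34).

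Exon GC content moved with these values. Across the 61 tested members, the Spearman correlation of the Dox effect in the SMARCB1 line with exon GC content was 0.55, and across 15924 tested genes it was 0.25. These are descriptions across genes of the same libraries, which share depth and preparation. In the GFP line the correlations were 0.35 and -0.01. Under the replicate block with a GC correction the log2 fold change of EEF1E1 was -0.30, still called.

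The same comparison was made in the GFP line, whose construct carries GFP in place of SMARCB1. GFP levels were not examined, and without Dox 32% of all genes tested were called between the lines. Effects of Dox itself and of making a foreign protein were not tested apart. Of the 61 tested members 0 were called in GFP Dox against GFP DMSO, beside 0 of 15931 genes (0%), and 0 had an unadjusted p under 0.05 beside 266 genes (1.67%). DESeq2 also called 0 members and 0 genes. The median log2 fold change of the members was 0.02 and their values ran from -0.17 for EEF1G to 0.20 for EEF1A2. Here too, the 95% intervals of 58 of the 61 lay within a 1.5-fold change, with the same limit for EIF4A1, EIF3C and EIF3CL.

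**Figure D2:**
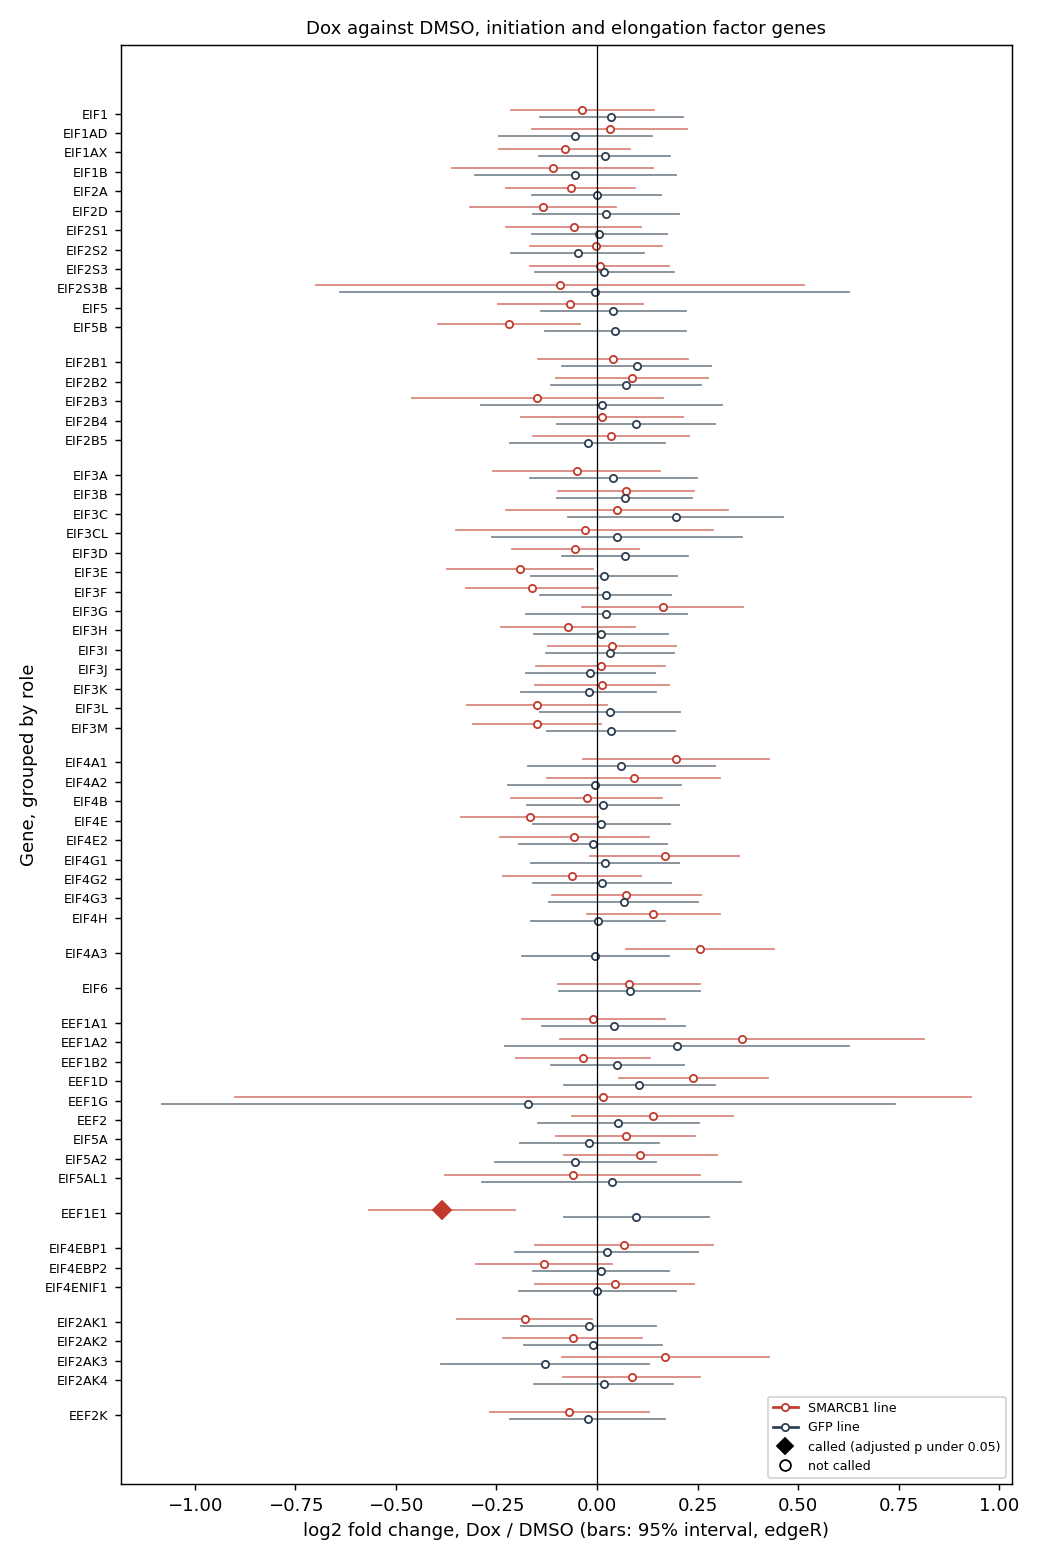
log2 fold changes of Dox against DMSO (x axis) for 60 tested members grouped by role (y axis, EIF1AY not drawn), in the SMARCB1 line (red) and the GFP line (dark), with 95% intervals from edgeR as bars and called genes as filled diamonds. EEF1E1 in the SMARCB1 line, at -0.39, is the only filled diamond.

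The difference between the Dox effects was then tested directly. It called 1 of the 61 members, against 4.71% of all genes tested (3.07% higher and 1.64% lower, or 489 of 750 called genes higher, which became 670 of 829 with library totals). This was again EEF1E1, whose Dox effect was lower by 0.48 on the log2 scale in the SMARCB1 line than in the GFP line (SE 0.12, 95% interval -0.74 to -0.23, adjusted p = 0.0224, edgeR). This call rested on the control line as well. It was lost without GFP Dox replicate 1 (difference of -0.37, adjusted p = 0.202), GFP DMSO replicate 2 (-0.41, 0.162) or SMARCB1 Dox replicate 1 (-0.46, 0.0897), and under scaling to library totals (-0.41, 0.0826).

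The 2 lines already differed before induction, and more members were called here than in either Dox effect. Of the 61 tested, 16 were called in SMARCB1 DMSO against GFP DMSO, 11 higher and 5 lower, against 32% of all genes tested (16.3% higher and 15.7% lower). At 10 CPM or more, 16 of 56 members (28.6%) were called and 38.8% of all genes. The SMARCB1 DMSO libraries lay above both GFP DMSO libraries for 18 members and below them for 22, against 33.1% and 31.6% of all genes tested. The median log2 difference was -0.01 over the members and 0.01 over all genes, and no member differed by more than 2-fold. Each construct was carried by 1 line, so the construct and the history of its line cannot be told apart.

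The split between higher and lower depended on the scaling. With library totals in place of TMM, 16 members were called as well, but 3 were higher and 13 lower, and the calls shared 8 genes. That scaling moved the median log2 difference of all genes from 0.01 to -0.10 and the split of all called genes from 2600 higher of 5105 to 1732 higher of 5390. SMARCB1 DMSO replicate 1, which had the highest mitochondrial share, also had the lowest TMM factor (0.907, against 0.978 to 1.04 in the other libraries). Without mitochondrially encoded genes 15 members were called, 10 higher and 5 lower. The calls below are relative to the TMM scale.

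6 of the 16 were called under all 16 alternatives, namely EIF5A2, EIF4EBP1 and EIF3K, which were higher in the SMARCB1 line, and EIF3F, EIF4G1 and EEF2K, which were lower. EIF5A2, the less abundant paralog of EIF5A, was at 44.8 and 41.0 CPM in SMARCB1 DMSO and at 23.3 and 22.0 CPM in GFP DMSO, a log2 difference of 0.92 (SE 0.09, adjusted p = 7.11e-08). With Dox it was at 48.1 and 44.3 CPM in the SMARCB1 line and at 22.6 and 21.0 CPM in the GFP line. All 4 libraries of the SMARCB1 line were above all 4 of the GFP line. EIF5A itself, which is far more abundant, differed by 0.09 on the log2 scale and was not called.

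Subunits of EIF3 moved in both directions. EIF3F, which carries an MPN domain, was at 245 and 266 CPM in SMARCB1 DMSO and at 437 and 444 CPM in GFP DMSO, a log2 difference of -0.79 (SE 0.08, adjusted p = 5.37e-08), so the SMARCB1 line had 0.58 of the level of the GFP line. The Dox groups kept this order, at 230 and 227 CPM with SMARCB1 and at 443 and 451 CPM with GFP. EIF3K, a subunit of the outer part of EIF3, was at 98.0 and 109 CPM against 79.4 and 78.0 CPM, a log2 difference of 0.40 (SE 0.08, adjusted p = 0.000489).

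EIF3L, the partner of EIF3K, was at 292 and 305 CPM in SMARCB1 DMSO and at 246 and 249 CPM in GFP DMSO (0.27, adjusted p = 0.0167). EIF3H, the MPN partner of EIF3F, was at 332 and 348 CPM against 283 and 293 CPM (0.24, adjusted p = 0.0259). Both were higher in the SMARCB1 line on the TMM scale. Neither was called with library totals (0.15 and 0.12) or without SMARCB1 DMSO replicate 2, GFP DMSO replicate 1 or GFP DMSO replicate 2 (EIF3L 0.24, 0.26 and 0.27, EIF3H 0.20, 0.21 and 0.26). The remaining 10 EIF3 genes were not called, and the median over all 14 was 0.03. The share of EIF3 genes called was 28.6%, beside 32% of all genes tested.

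In the cap complex, 2 of 9 tested genes were called (22.2%, beside 32% of all genes tested) and both encode EIF4G scaffolds. EIF4G1 was at 241 and 260 CPM in SMARCB1 DMSO and at 317 and 358 CPM in GFP DMSO, a log2 difference of -0.43 (SE 0.09, adjusted p = 0.000708). EIF4G3 was at 115 and 114 CPM against 129 and 144 CPM (-0.25, adjusted p = 0.0365). The third member of that family, EIF4G2, differed by 0.05 and EIF4E by 0.03, neither called. EIF4A3 was at 40.7 and 45.3 CPM against 51.1 and 53.0 CPM (-0.27, adjusted p = 0.021). The call of EIF4G3 was lost without SMARCB1 DMSO replicate 1 (-0.26), SMARCB1 DMSO replicate 2 (-0.25) or GFP DMSO replicate 2 (-0.17). That of EIF4A3 was lost without SMARCB1 DMSO replicate 1 (-0.20), GFP DMSO replicate 1 (-0.30) or GFP DMSO replicate 2 (-0.25).

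Among the start codon and ternary complex factors, 3 of 13 were called (23.1%), beside 32% of all genes tested. All 3 were higher in the SMARCB1 line on the TMM scale, and none of these 3 was called with library totals. EIF1, which guards against wrong start codons, was at 273 and 251 CPM in SMARCB1 DMSO and at 210 and 201 CPM in GFP DMSO (0.35, SE 0.09, adjusted p = 0.00302). EIF2S2 was at 114 and 115 CPM against 94.4 and 96.6 CPM (0.26, adjusted p = 0.0138). EIF2D, which can deliver tRNA without EIF2, was at 45.9 and 44.8 CPM against 35.7 and 40.2 CPM (0.26, adjusted p = 0.0288). The libraries of the 2 groups did not overlap in these genes. Of all genes tested, 33.1% were higher without overlap and 31.6% lower. The genes were named for their calls on the same libraries, so this adds no support. The calls were also lost without GFP DMSO replicate 2 for EIF1 (0.31) and EIF2S2 (0.27), without GFP DMSO replicate 1 for EIF2S2 (0.24) and EIF2D (0.17), and without either SMARCB1 DMSO library for EIF2D (0.24 and 0.27), which DESeq2 did not call either. Of the 5 EIF2B genes 0 were called, and their log2 differences were all below 0, from -0.29 to -0.07. With library totals EIF2B3 (-0.40) and EIF2B4 (-0.34) were called lower. EIF2B4 was also called under the replicate block, with and without the GC correction.

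The last called core factors were EEF1D and EEF1E1. EEF1D was at 38.9 and 39.9 CPM in SMARCB1 DMSO and at 31.9 and 34.1 CPM in GFP DMSO (0.26, adjusted p = 0.0337), a call lost in 9 of the 16 alternatives, among them DESeq2, library totals (0.14) and each of the 6 fits without a DMSO or GFP library (0.21 to 0.30). EEF1E1 was higher by 0.23 on the log2 scale (adjusted p = 0.048), a call lost in 13 of the 16, over which its log2 difference ran from 0.11 to 0.29. EEF1A1 was higher by 0.20 (adjusted p = 0.0753) and EEF2 by 0.13 (adjusted p = 0.335), and neither was called. EEF1A1 was called in 4 of the 16 alternatives, among them DESeq2 (0.19) and the fit without SMARCB1 DMSO replicate 1 (0.25), with an adjusted p from 0.0225 to 0.55 over all 16.

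**Figure D3:**
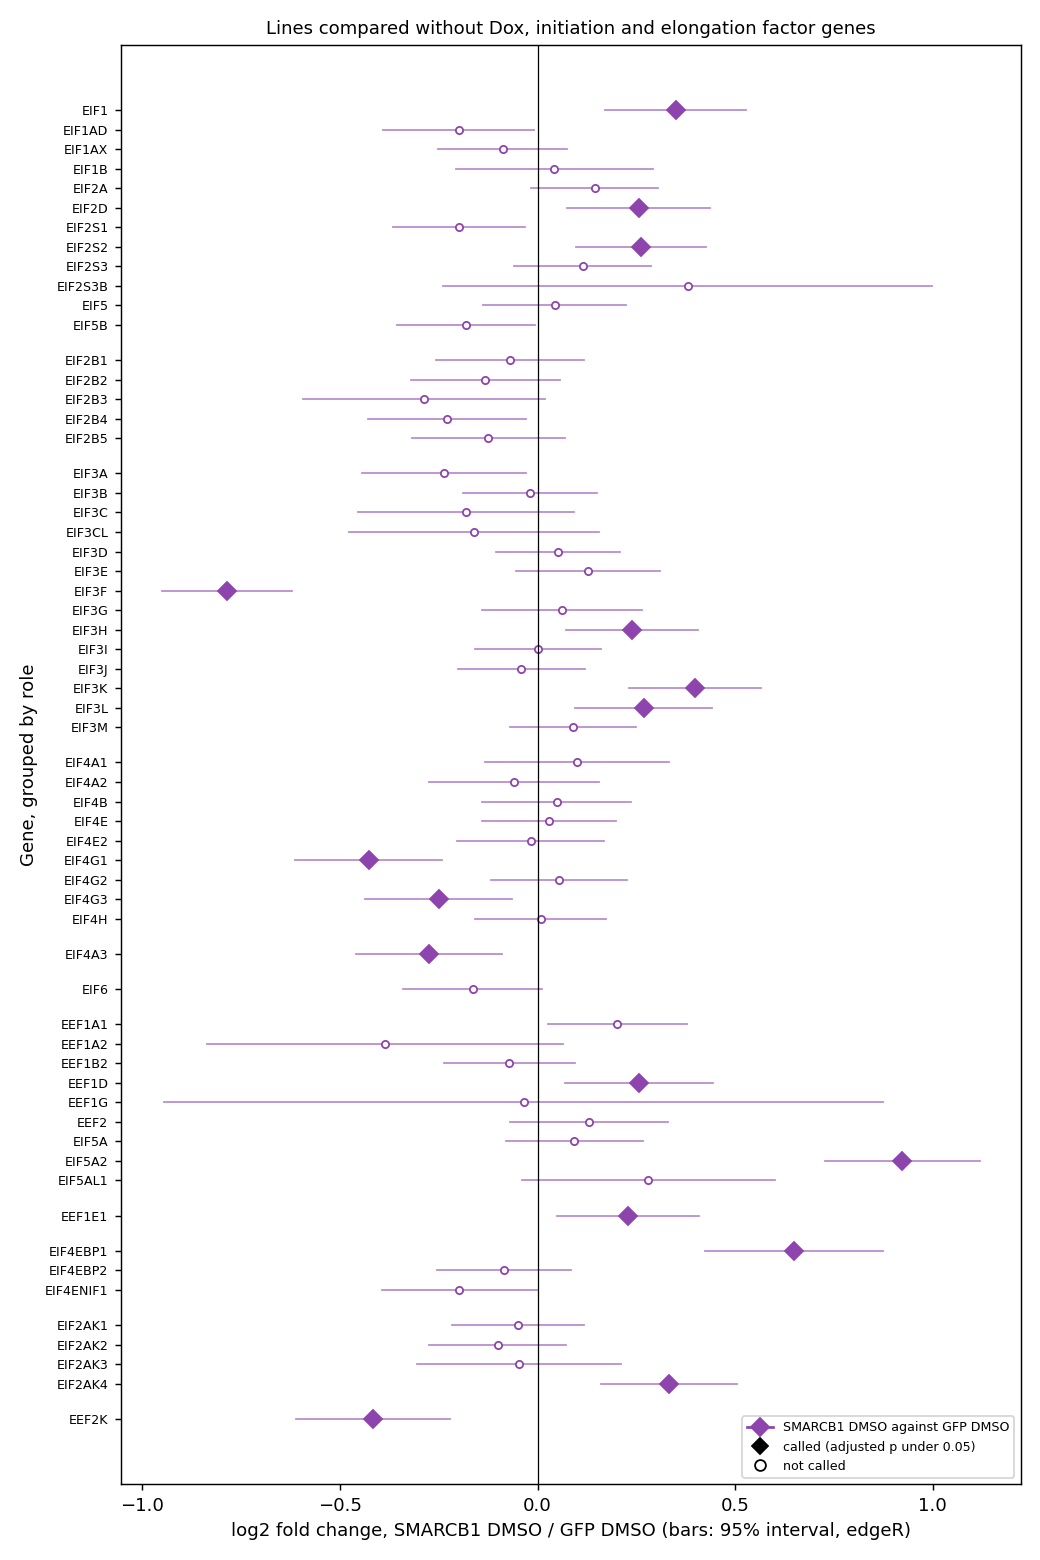
log2 difference of SMARCB1 DMSO against GFP DMSO (x axis, TMM scale) for 60 tested members grouped by role (y axis, EIF1AY not drawn), with 95% intervals from edgeR as bars and called genes as filled diamonds. EIF5A2 at 0.92 and EIF4EBP1 at 0.65 lie farthest to the right and EIF3F at -0.79 farthest to the left among the called genes.

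The binding proteins and kinases are shown apart from the core factors. Of the 8 tested, 0 were called for Dox in the SMARCB1 line (14% of all genes tested), 0 in the GFP line (0%) and 3 (37.5%) between the lines (32%). EIF4EBP1 was at 69.7 and 68.8 CPM in SMARCB1 DMSO, 81.8 and 63.3 CPM in SMARCB1 Dox, 40.9 and 47.4 CPM in GFP DMSO, and 41.6 and 48.1 CPM in GFP Dox. All 4 libraries of the SMARCB1 line were above all 4 of the GFP line (log2 difference without Dox 0.65, SE 0.11, adjusted p = 6.29e-05), whereas the SMARCB1 Dox libraries lay on either side of the DMSO libraries (log2 fold change 0.07, 95% interval -0.15 to 0.29).

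EIF4EBP2 was the more abundant by CPM, though per kb EIF4EBP1 and EIF4EBP2 were at 69.8 and 70.0 CPM per kb. It was at 512 and 526 CPM in SMARCB1 DMSO, 458 and 489 CPM in SMARCB1 Dox, 575 and 525 CPM in GFP DMSO, and 562 and 545 CPM in GFP Dox, with no call in any comparison. EIF4ENIF1, which carries EIF4E into the nucleus and to P-bodies, was at 35.2 and 37.6, 35.0 and 40.1, 39.2 and 44.4, and 41.9 and 41.8 CPM in the same order of groups. It was not called either, except between the lines in 2 of the 16 alternatives. These were library totals (-0.31) and the replicate block with GC correction. The ratio of these binding proteins to EIF4E protein was not measured here.

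The 4 EIF2 kinases respond to heme shortage (EIF2AK1), double-stranded RNA (EIF2AK2), stress of the endoplasmic reticulum (EIF2AK3) and amino acid shortage (EIF2AK4). EIF2AK4 was at 78.1 and 83.6 CPM in SMARCB1 DMSO, 86.8 and 84.9 CPM in SMARCB1 Dox, 60.7 and 67.7 CPM in GFP DMSO, and 65.8 and 64.1 CPM in GFP Dox. It was higher in the SMARCB1 line without Dox by 0.33 (SE 0.08, adjusted p = 0.00334), which was lost without GFP DMSO replicate 1 (0.25) and with library totals (0.22). With Dox it again lay above both GFP Dox libraries.

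EIF2AK1 was the most abundant kinase at 102 CPM per kb. It was at 464 and 448 CPM in SMARCB1 DMSO, 391 and 414 CPM in SMARCB1 Dox, 479 and 464 CPM in GFP DMSO, and 485 and 444 CPM in GFP Dox, so the SMARCB1 Dox libraries were the lowest but the change was not called (log2 fold change -0.18, SE 0.08, adjusted p = 0.157). EIF2AK2 was at 180 and 187, 165 and 188, 190 and 204, and 191 and 200 CPM in the same order. EIF2AK3 was at 16.3 and 14.3, 18.1 and 16.3, 17.4 and 14.2, and 14.4 and 14.5 CPM. Neither was called in any comparison.

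EEF2K was at 40.2 and 43.6 CPM in SMARCB1 DMSO, 36.2 and 43.8 CPM in SMARCB1 Dox, 56.6 and 55.3 CPM in GFP DMSO, and 53.5 and 56.5 CPM in GFP Dox. The SMARCB1 line was lower in every library, by 0.42 on the log2 scale without Dox (SE 0.09, adjusted p = 0.00153), and the Dox effect within it was -0.07 (95% interval -0.27 to 0.13).

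**Figure D4:**
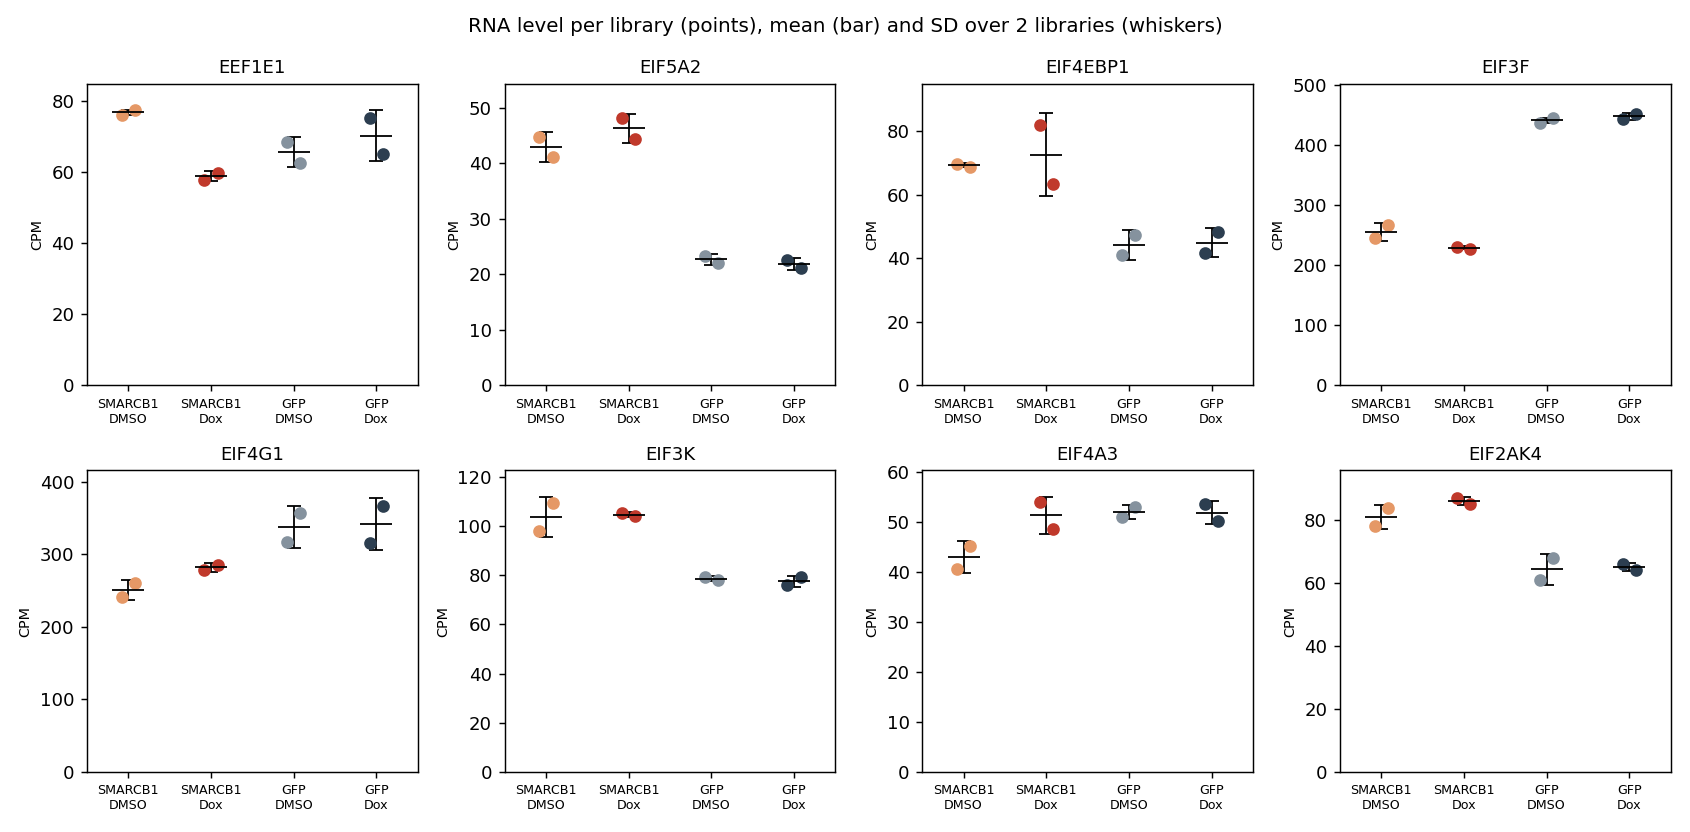
RNA levels in CPM (y axis, from 0) of 8 members by group (x axis), with a point for each library, the mean of 2 libraries as a bar and the SD as whiskers. EEF1E1 is lowest in SMARCB1 Dox (57.7 and 59.7 CPM), whereas EIF5A2, EIF4EBP1, EIF3K and EIF2AK4 are higher, and EIF3F and EIF4G1 lower, in all SMARCB1 line libraries than in all GFP line libraries.

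EEF1E1 had neither promoter feature. Of the 12 members with a pyrimidine start, 0 were called for Dox in the SMARCB1 line, with a median log2 fold change of -0.03 and a range from -0.16 to 0.14. Between the lines 3 were called (EIF3K and EIF2D higher, EIF3F lower), with a median of 0.10. Of the 11 tested members with an E-box, 0 were called for Dox in the SMARCB1 line (median -0.06) and 5 between the lines, EIF5A2 and EIF3K higher and EIF3F, EIF4A3 and EEF2K lower. Over all genes tested the shares called were 14% for Dox in the SMARCB1 line and 32% between the lines. No test was made on these small sets.

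Other genes of translation control were counted from a list of 56 in 7 classes, of which 55 were matched by symbol and tested. For Dox in the SMARCB1 line 7 were called (12.7%), 3 higher and 4 lower, beside the 14% of all genes. MKNK1 and MKNK2, the kinases that phosphorylate EIF4E, were both higher. MKNK2 was at 84.3 and 89.1 CPM in SMARCB1 DMSO and at 117 and 108 CPM in SMARCB1 Dox (log2 fold change 0.37, SE 0.08, adjusted p = 0.00226), and MKNK1 at 14.0 and 15.5 CPM and then at 18.7 and 19.9 CPM (0.38, SE 0.11, adjusted p = 0.025). RPS6KB1, the S6 kinase below mTOR, was at 76.0 and 76.3 CPM and then at 57.0 and 61.4 CPM (-0.36, SE 0.08, adjusted p = 0.00357).

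DPH5 and DPH6 encode enzymes that build diphthamide, the modified residue of EEF2, and both were lower. The other DPH genes listed were not called, with log2 fold changes of 0.17 (DPH1), -0.18 (DPH2), -0.11 (DPH3) and 0.11 (DPH7). DPH6 was at 15.4 and 15.8 CPM in SMARCB1 DMSO and at 9.55 and 11.2 CPM in SMARCB1 Dox (-0.59, SE 0.14, adjusted p = 0.00465), and DPH5 at 39.2 and 45.1 CPM and then at 33.4 and 34.5 CPM (-0.31, adjusted p = 0.0235). DHX29, a helicase for structured 5′ ends, was at 58.4 and 62.9 CPM and then at 46.7 and 52.9 CPM (-0.28, adjusted p = 0.0376). TRIB3, a pseudokinase gene of the ATF4 response, was at 24.6 and 22.1 CPM and then at 37.3 and 31.9 CPM (0.57, SE 0.17, adjusted p = 0.0283). It was at 5.18 and 7.32 CPM in GFP DMSO, so the lines already differed without Dox (log2 difference 1.89, adjusted p = 6.89e-08, edgeR). TRIB3 was the 1 gene called of the 8 tested for EIF2 stress signalling. ATF4 itself was not called (0.20, adjusted p = 0.0999). In none of the 7 called genes did the SMARCB1 Dox and DMSO libraries overlap. Of all genes tested, 25.9% were higher without overlap and 25.2% lower. The 7 were named for their calls on the same libraries, so this adds no support.

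Of these 7, MKNK2 was called in all 16 alternatives, RPS6KB1 and DPH6 in 15, MKNK1 and TRIB3 in 13, DPH5 in 11 and DHX29 in 10. All except MKNK2 lost the call without SMARCB1 Dox replicate 1 (RPS6KB1 -0.31, DPH6 -0.48, MKNK1 0.43, TRIB3 0.46, DPH5 -0.29 and DHX29 -0.20). In the GFP line 0 of the 55 were called. By the test of the difference between the Dox effects (edgeR), DPH6 was called (-0.66, SE 0.19, adjusted p = 0.0485). RPS6KB1 (-0.39, adjusted p = 0.0542) and MKNK2 (0.37, adjusted p = 0.0631) were not. Nor were MKNK1 (0.46, adjusted p = 0.12), DPH5 (-0.35, 0.153), DHX29 (-0.28, 0.261) and TRIB3 (0.57, 0.304). Between the lines without Dox 17 of the 55 were called (30.9%, beside 32% of all genes tested), 8 higher and 9 lower.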

How the data were processed

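RNA of 8 G401 libraries (4 groups of 2) was analysed. The authors aligned reads with STAR and deposited raw HTSeq counts (intersection-strict mode over exons, GENCODE v42, build hg38 in the submitters' processing notes; versions and strand option not given in the sources used here). The labels name ribosome profiling kits and the study's methods a directional RNA kit, so the library chemistry is uncertain. The 5 entries naming no gene held 27.0% to 29.3% of the reads and were left out. Gene symbols, exons and transcripts came from GENCODE v44 (GRCh38), which matched 62625 of 69215 genes, and start windows came from RefSeq (GRCh38.p14).

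Counts were fitted with edgeR 4.0.16 (R 4.3.3): default expression filter (15931 genes), TMM scaling, quasi-likelihood test with 1 mean per group over all 8 libraries, Benjamini-Hochberg adjustment, calls at an adjusted p under 0.05. The fit was tested on simulated data. Replicates differed beyond sampling noise in every group (chi-square per degree of freedom 7.76 to 20.8). Alternatives were DESeq2 1.42.0 (the study's tool), other scalings and filters, a replicate block, a GC correction, and each library left out.

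The members, gene lists and tests were chosen with earlier results of these data known. Per-library values are given for members called in the Dox effects, the 10 higher and 10 lower called members of largest difference between the lines, the 5 most abundant per kb, the binding proteins and kinases, and listed pathway genes called in the SMARCB1 line. EIF4A3, EEF1D, EIF5B and EEF1A2 in the SMARCB1 Dox effect were named after their values were seen. EIF1AY is counted and its level not printed. No protein sequence was used.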

Additional observations from a re-analysis of the deposited data

Results flagged for a closer look

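Among the 61 tested members and the 55 listed genes of translation control, the Dox effect differed between the lines for 1 gene of each by the test of the difference itself (edgeR, Benjamini-Hochberg), which called 750 of all 15931 genes tested (4.71%). For EEF1E1 the Dox effect was lower in the SMARCB1 line by 0.48 on the log2 scale (difference -0.48, adjusted p = 0.0224), with both SMARCB1 Dox libraries below both SMARCB1 DMSO libraries and overlapping GFP groups. The call held in 11 of the 15 alternatives run for it. For DPH6, an enzyme gene of diphthamide synthesis outside the factor family, the difference was -0.66 (adjusted p = 0.0485), with 15.04 and 15.03 CPM in GFP DMSO and 17.96 and 13.58 CPM in GFP Dox, and the call held in 6 of 15 alternatives, over which the adjusted p ran from 0.0147 to 0.333.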

How the results depend on the processing

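For Dox in the SMARCB1 line, the 1 member called became 3 with library totals (EEF1D and EIF4A3 added), 4 with the replicate block (EEF1D, EIF4A3 and EIF5B added), 3 with the block and the GC correction (EIF4A3 and EIF5A2 added), and 1 to 4 when a library was left out, with 3 without SMARCB1 DMSO replicate 2 and 4 without SMARCB1 Dox replicate 2. For the difference of the Dox effects, 1 became 0 with library totals and 0 to 1 when a library was left out. Between the lines, 16 became 8 to 16 when a library was left out (10 without SMARCB1 DMSO replicate 2, 9 and 8 without GFP DMSO replicate 1 and 2) and 15 to 22 otherwise, with 22 under the replicate block (EEF1A1, EIF1AD, EIF2B4, EIF2S1, EIF3A and EIF5B added). In the GFP line 0 were called under all 16 alternatives. Over all genes, calls ran from 1284 to 3149 for Dox in the SMARCB1 line (2234 as reported), 390 to 1282 for the difference (750) and 3452 to 6270 between the lines (5105). No called log2 value of a named gene changed sign. The correlations of replicate deviations between groups were small but all above 0, from 0.0309 to 0.148. With the replicate block the calls over all genes rose to 3149 for Dox in the SMARCB1 line. They rose to 1282 for the difference and to 5977 between the lines. Whether the replicate numbers pair libraries was not tested, and the main fit has no block. Restricting the fit to the libraries compared leaves the difference test as it was. Where leaving out a library left a group of 1, that library was assumed to vary like the others. Genes near 0 and genes sharing sequence are limited by depth and counting. The causes of these changes were not tested.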

Other observations

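Genes around EIF5A2 also differed between the lines without Dox. Of the 10 other protein-coding genes tested within 1000000 bases of EIF5A2 on chromosome 3, 5 were called higher and 3 lower, with a median log2 difference of 0.86 beside 0.92 for EIF5A2 itself. Around EIF3F, 15 genes had a median of -0.12, with 1 called higher and 7 lower, beside -0.79 for EIF3F. Around EIF4EBP1, 18 genes had a median of 0.05, with 1 called higher and 5 lower, beside 0.65. Over all genes tested, 16.3% were called higher and 15.7% lower in this comparison. These neighborhoods were chosen after the differences were seen, from those of all members called between the lines. Around EEF1E1, 9 genes had a median of 0.20 beside 0.23, with 4 called higher and 0 lower. Around EIF4G3, 17 genes had a median of -0.22 beside -0.25, with 2 called higher and 6 lower. The median had the opposite sign to the member around EEF2K, EIF2AK4, EIF2D, EIF2S2, EIF3H and EIF3K.

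EEF1E1 protein works beside AIMP1 and AIMP2, the other scaffolds of the multi-tRNA synthetase complex, whose genes were looked up after the fall of EEF1E1 was seen. AIMP2 was at 40.9 and 44.2 CPM in SMARCB1 DMSO and at 54.1 and 51.2 CPM in SMARCB1 Dox, so it rose by 0.31 on the log2 scale (SE 0.09, adjusted p = 0.0222, edgeR). AIMP1 was at 58.4 and 57.6 CPM and then at 51.2 and 48.6 CPM (-0.22, adjusted p = 0.078), which was not called. BLOC1S5, the gene that EEF1E1-BLOC1S5 joins to EEF1E1, was at 24.2 and 22.1 CPM and then at 19.3 and 18.4 CPM (-0.29, adjusted p = 0.0683) and was not called. In the GFP line the log2 fold changes of AIMP2, AIMP1 and BLOC1S5 were 0.02, 0.02 and -0.10. The edgeR test of the difference between the Dox effects called none of them. It gave AIMP2 0.29 (adjusted p = 0.239), AIMP1 -0.24 (0.292) and BLOC1S5 -0.19 (0.594). AIMP2 also shares exon bases with EIF2AK1 on the opposite strand.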
